A study of Mus musculus with 4 samples.

Results

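Sulphur amino acid and taurine metabolism was described from 10 genes that carry methionine to homocysteine, cysteine and taurine. They were Mat1a, Gnmt, Ahcy, Bhmt, Bhmt2, Cbs, Cth, Cdo1, Csad and Slc6a6, and every array probe that bore one of these names was used, which gave 16 of 39429 probes and 10 of 24323 gene symbols. The genes were chosen by name with their log2 ratios of knockout over control on each array already known, so the log2 ratio is the measured value behind the choice. The differences of these 10 genes are therefore given as a description with no test.

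The samples were livers of 4 control mice and of 4 mice in which NIPP1 had been knocked out conditionally in the liver. NIPP1, the product of Ppp1r8, is a regulatory subunit of protein phosphatase 1 in the nucleus. All 8 mice were male, untreated, of a mixed strain and 2 months old, and total RNA of the liver was measured. Each of the 4 two-colour arrays carried 1 control mouse and 1 knockout mouse, each mouse was on 1 array, and the knockout RNA was labelled with Cy3 on replicates 1 and 2 and with Cy5 on replicates 3 and 4. The sources used here name neither the driver of the deletion nor the part of the gene that it removes. Fewer cells of a type and less RNA per cell cannot be told apart in such whole-tissue RNA.

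The liver turns methionine into S-adenosylmethionine, the methyl donor of the cell. Its use leaves homocysteine, which is either remethylated to methionine with betaine or a folate, or passed through transsulphuration to cysteine. Cysteine is built into glutathione or oxidised to taurine, and the liver joins taurine to bile acids. Hepatocytes hold most of these enzymes at high levels, and taurine synthesis is known to respond to bile acid signalling.

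Of the 10 genes, Csad, the decarboxylase that commits oxidised cysteine to taurine, stood lowest, 2.19-fold lower in the knockout livers (log2 -1.13 ± 0.39, SD, n = 4 arrays). It was the only one of them whose 4 knockout mice all lay below the 4 control mice, as was found for 5.01% of all genes tested. Bhmt, the betaine-dependent remethylating enzyme, had the highest mean (0.38 ± 1.10), but its arrays split by dye orientation, below 0 on replicates 1 and 2 and above 0 on replicates 3 and 4. Gnmt (0.32 ± 0.50) and Mat1a (0.29 ± 0.60) were also higher on replicates 3 and 4 than on replicates 1 and 2, and Bhmt2, Cbs and Cdo1 had means of -0.04, -0.01 and -0.02.

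To show what the arrays and the reference hold for the genes on which the description turns, sequences of 2 kinds are printed. The first are probe sequences of Ahcy and Bhmt, whose probes differed among themselves. The brightest probe of each of these genes is not among those printed. The positions of the printed probes come from the array files (mouse build mm9), and no exon annotation of that build was used. The Ahcy sequences each have 1 reading frame without a stop triplet, and in the Bhmt sequence the capitals mark a TAG that is the only stop triplet of its frame.
Ahcy probe A_52_P176160 (chr2:154891321-154891380, minus strand): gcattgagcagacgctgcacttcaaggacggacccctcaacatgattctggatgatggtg
Ahcy probe A_55_P2031100 (chr2:154894644-154894703, minus strand): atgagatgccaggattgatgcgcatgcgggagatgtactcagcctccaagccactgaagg
Bhmt probe A_55_P2103963 (chr13:94386836-94386840, minus strand, the stretch that the array file places): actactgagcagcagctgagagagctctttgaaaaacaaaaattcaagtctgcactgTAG

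The second are the 250 bases before the RefSeq transcription starts of Bhmt and Csad on build GRCm38.p6, shown because these genes had the highest and the lowest mean of the 10. Windows were held for 6 of the 10 genes. AGGTCA, the letters of a nuclear receptor hexamer, was searched on both strands and is in capitals. It occurred 3 times before Bhmt, at 234, 72 and 47 bases from the start, and in neither window of Csad. At least 1 AGGTCA was found in 14.0% of 32851 such windows of all genes and at least 3 in 0.131%. Ahcy and Gnmt each had 1. In the same search, CCAAT was in 33.8% of all windows, TATAAA in 12.4%, CACGTG in 6.02% and TGACNNNGC in 10.2%, and the last can overlap the hexamer read on the other strand. The Bhmt window and the upstream Csad window each held 1 CCAAT and none of the other 3. The downstream Csad window held none of the 4. These matches are letters in a window and no binding was measured.
Bhmt (chr13:93637759-93638008, minus strand): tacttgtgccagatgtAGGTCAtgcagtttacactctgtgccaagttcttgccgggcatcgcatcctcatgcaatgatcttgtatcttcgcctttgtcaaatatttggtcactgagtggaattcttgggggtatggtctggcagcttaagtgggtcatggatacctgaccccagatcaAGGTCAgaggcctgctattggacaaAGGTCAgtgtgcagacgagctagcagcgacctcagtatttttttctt
Csad, upstream start (chr15:102205053-102205302, minus strand): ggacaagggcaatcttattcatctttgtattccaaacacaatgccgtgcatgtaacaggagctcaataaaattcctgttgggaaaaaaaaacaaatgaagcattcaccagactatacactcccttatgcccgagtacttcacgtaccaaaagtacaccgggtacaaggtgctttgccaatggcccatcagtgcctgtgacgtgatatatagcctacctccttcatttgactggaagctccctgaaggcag
Csad, downstream start (chr15:102189044-102189293, minus strand): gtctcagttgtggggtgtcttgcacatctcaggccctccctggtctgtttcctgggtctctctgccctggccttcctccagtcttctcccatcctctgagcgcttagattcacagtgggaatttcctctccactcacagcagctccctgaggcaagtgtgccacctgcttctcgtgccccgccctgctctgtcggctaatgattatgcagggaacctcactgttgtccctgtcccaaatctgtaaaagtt

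All 16 probes were well above background in all 8 mice, and no spot was saturated on any array. Over arrays and dyes, 52.7% to 56.3% of all spots passed that mark. The number of arrays limits the precision. Ppp1r8, the targeted gene, had -0.60, -0.74, -0.74 and -0.63 on replicates 1 to 4, and its second probe had a mean of -0.65 ± 0.08 (SD, n = 4). Whether its probes lie in the deleted part is not given. The hepatocyte markers were present in both genotypes, with a summed level of 19.07 to 19.64 in control and 19.20 to 19.67 in knockout livers (log2 normalized intensity, all 8 markers).

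Over all 16314 genes tested, limma called 0 at a Benjamini-Hochberg adjusted p under 0.05, where 2061 were higher (12.6%) and 1646 lower (10.1%) at an unadjusted p under 0.05, and at an adjusted p under 0.1 it called 573 higher (3.51%) and 334 lower (2.05%). Csad was the 1 lower and Bhmt the 1 higher gene among the 10 at that second threshold. Since the 10 genes were chosen with this contrast known, nothing is read from that count. With the median of each array centred in place of loess, 75.4% of all calls at 0.1 were higher, against 63.2% here. Without replicate 1 the calls at 0.1 numbered 58, and without replicate 2, 3 or 4 they numbered 0.

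**Figure D1:**
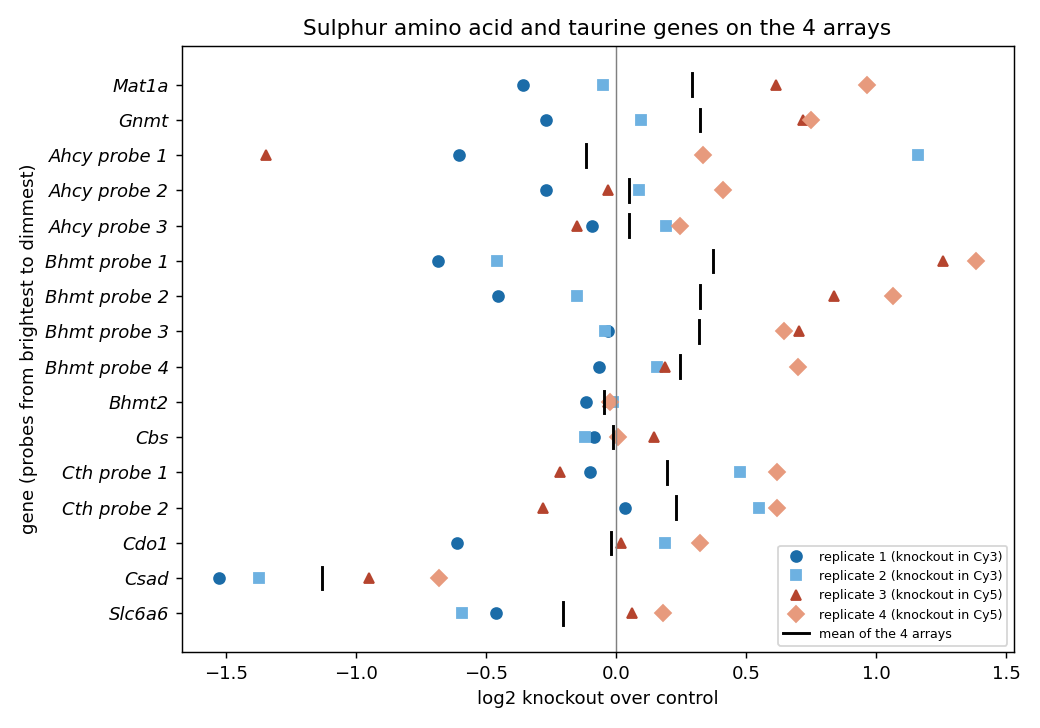
Log2 knockout over control (x axis) for each of the 16 probes of the 10 genes (y axis), 1 point per array, coloured by the dye that carried the knockout RNA, with the mean as a black bar. All 4 points of Csad lie between -1.53 and -0.68, while the brightest probe of Bhmt has points at -0.68 and -0.46 and at 1.26 and 1.38.

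The methionine cycle starts with Mat1a, the hepatocyte enzyme that makes S-adenosylmethionine. Its log2 ratios were -0.36, -0.05, 0.62 and 0.96 on replicates 1 to 4, a mean of 0.29 ± 0.60 (SD). The control mice had levels of 15.21, 15.05, 15.04 and 14.18 and the knockout mice 14.85, 15.00, 15.66 and 15.15 (log2 normalized intensity, compared within the probe). The control mouse of replicate 4 was the lowest of the 8, and the genotypes overlapped.

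Gnmt, which spends S-adenosylmethionine on glycine and so sets the methyl supply, had -0.27, 0.10, 0.72 and 0.75, a mean of 0.32 ± 0.50. Among mice labelled with Cy3, the knockouts had levels of 16.26 and 16.56 and the controls 16.13 and 15.89. Among those labelled with Cy5, the knockouts had 16.85 and 16.64 and the controls 16.53 and 16.46. Within each dye the knockout mice thus lay above the control mice, although over both dyes the genotypes overlapped.

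Ahcy, which splits S-adenosylhomocysteine and releases homocysteine, was read by 3 probes that did not show the same values. The brightest, which lies furthest 3′ of the 3 and holds the letters AATAAA, had -0.60, 1.16, -1.35 and 0.33, a mean of -0.11 ± 1.09. In levels, the control mouse of replicate 3 (14.54) and the knockout mouse of replicate 2 (14.17) stood above the other 6, which lay between 12.63 and 13.23. Both high mice were labelled with Cy3, so the high values followed neither genotype.

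The 2 Ahcy probes printed above, 6274 and 9597 bases further upstream, were much quieter. Probe A_52_P176160 had -0.27, 0.09, -0.03 and 0.41, a mean of 0.05 ± 0.28. Probe A_55_P2031100 had -0.09, 0.19, -0.15 and 0.25, a mean of 0.05 ± 0.20. The spread of the brightest probe was several times that of the others, and none of the 3 kept 1 sign on the 4 arrays. The brightest probe, which stands for Ahcy elsewhere, is annotated to another transcript record than these 2.

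Bhmt was read by 4 probes, of which the brightest had -0.68, -0.46, 1.26 and 1.38. Its Cy3-labelled knockout mice had levels of 16.62 and 16.92 against 16.26 and 16.16 in the Cy3-labelled controls. Its Cy5-labelled knockout mice had 17.51 and 17.54 against 17.30 and 17.38 in the Cy5-labelled controls. Within each dye, therefore, both knockout mice lay above both control mice, while Cy5 levels lay above all Cy3 levels.

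The split between orientations was smaller on the dimmer Bhmt probes. The mean of replicates 3 and 4 less that of replicates 1 and 2 was 1.89, 1.25, 0.71 and 0.40 from the brightest probe to the dimmest. The means over the 4 arrays lay closer together, at 0.38, 0.32, 0.32 and 0.25. Computed from the processed signals of the scanner software, the brightest probe had -0.32, -0.12, 1.01 and 1.02, a mean of 0.40 ± 0.72. From the same signals probe A_55_P2103963 had 0.18, 0.15, 0.58 and 0.46, above 0 on each array. The 4 probes thus differed in how far the arrays split and little in their mean, but the dimmest is annotated to another transcript. Its Cy3 signals were 106 to 218, against 37658 to 75523 on the brightest, and its mean was 0.35 from the processed signals.

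The hepatocyte markers shared this split in part, with list medians of -0.18, -0.19, 0.05 and 0.32 on replicates 1 to 4. Of the 8 markers, the 3 genes Alb, Ttr and Apoa1 were below 0 on replicates 1 and 2 and above 0 on replicates 3 and 4. Of all genes tested, 14.4% had that split. Apob, the main protein of lipoproteins made in the liver, was above 0 on all 4 arrays, and Hnf4a, a hepatocyte transcription factor, had the opposite split. Alb, serum albumin, had -0.44, -0.24, 1.20 and 1.24, and the summed level of the 8 markers, to which the brightest contribute most, differed by -0.32, -0.31, 0.38 and 0.60 on replicates 1 to 4. Dye orientation and mice cannot be told apart in these differences, since the orientations held different mice. The part of hepatocyte content in the Bhmt values was not tested.

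Bhmt2, the neighbour of Bhmt on chromosome 13 that remethylates homocysteine with S-methylmethionine, had -0.12, -0.01, -0.03 and -0.02, a mean of -0.04 ± 0.05. All 4 values were below 0, with median centring the mean was 0.01, and the levels of the genotypes overlapped, with all 8 mice between 14.12 and 14.33. The 2 related enzymes thus had different values on every array.

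Cbs, the entry of transsulphuration, had -0.09, -0.12, 0.15 and 0.01, a mean of -0.01 ± 0.12, and its 8 levels lay between 15.55 and 15.74. Cth, which releases cysteine, had -0.10, 0.48, -0.21 and 0.62, a mean of 0.20 ± 0.41. A second Cth probe 2516 bases away had 0.04, 0.55, -0.28 and 0.62, a mean of 0.23 ± 0.43. Both Cth probes were high on replicates 2 and 4 and low on replicate 3, the arrays on which the brightest Ahcy probe was also high and low.

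Cdo1, the dioxygenase that oxidises cysteine to the substrate of Csad, had -0.61, 0.19, 0.02 and 0.32, a mean of -0.02 ± 0.41. Its control mice had levels of 15.53, 15.23, 15.48 and 14.93 and its knockout mice 14.92, 15.42, 15.50 and 15.26. The genotypes covered almost the same range.

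Csad, the next step, had -1.53, -1.37, -0.95 and -0.68 on replicates 1 to 4 at its probe on chr15:102007569-102007628 (mm9, minus strand). The control mice had levels of 14.41, 14.06, 13.43 and 14.00 and the knockout mice 12.88, 12.69, 12.48 and 13.32. Every knockout mouse lay below every control mouse, by a narrow margin between the highest knockout mouse, of replicate 4, and the lowest control mouse, of replicate 3. Over all genes tested, 5.01% had knockout mice all below control mice and 7.11% had them all above.

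Csad ranked as number 26 from the lowest mean log2 ratio among 16314 genes, and 0.264% of them had a mean below -1. Csad was also lower within each dye. Cy3-labelled knockout mice had 12.88 and 12.69 against 13.43 and 14.00, and Cy5-labelled knockout mice 12.48 and 13.32 against 14.41 and 14.06. The mean was -1.45 with the knockout in Cy3 and -0.82 with the knockout in Cy5. Both orientations gave the same sign, with a larger difference in the first.

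Slc6a6, the plasma membrane taurine transporter, had -0.46, -0.59, 0.06 and 0.18, a mean of -0.20 ± 0.38. The knockout mice had levels of 11.17, 11.19, 11.22 and 11.34, while the control mice had 11.63, 11.78, 11.16 and 11.16. The Cy5-labelled control mice stood above all knockout mice, and the Cy3-labelled control mice just below them.

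**Figure D2:**
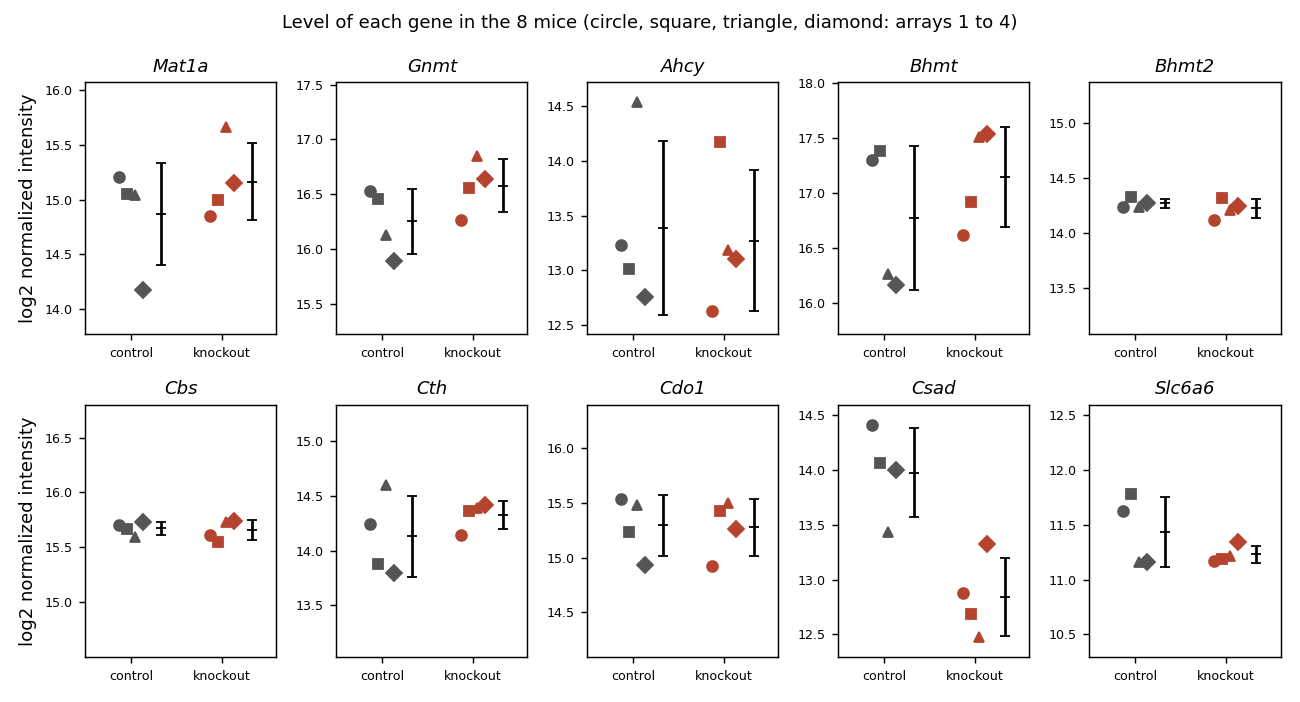
Level of each of the 10 genes at its brightest probe (y axis, log2 normalized intensity, each panel spanning the same number of log2 units) in the 4 control and 4 knockout mice (x axis), with the mean and SD beside the points. The 2 genotypes are apart in Csad, with knockout mice between 12.48 and 13.32 and control mice between 13.43 and 14.41, and overlap in the other 9 panels. Of all genes tested, 5.01% had the knockout mice all below the control mice and 7.11% all above.

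Of the 10 genes, 4 had a mean above 0 and 6 below, with a median of -0.02 against -0.00076 for all genes tested, and with median centring Bhmt2 (0.01), Cbs (0.04) and Cdo1 (0.03) lay above 0. The sign was the same on all 4 arrays in 2 genes, both lower (Csad and Bhmt2), where all genes tested gave 10.9% lower, 13.3% higher and 24.2% in either direction. With the processed signals these 2 were again below 0 on each array, and Gnmt was above 0 on each, with 0.02, 0.34, 0.51 and 0.46. The 4 genes Mat1a, Bhmt, Cbs and Slc6a6 were below 0 on replicates 1 and 2 and above 0 on replicates 3 and 4, as were 14.4% of all genes. With the processed signals 3 of these kept the split, and Cbs had 0.07, 0.01, 0.05 and -0.16. Ahcy and Cth at their brightest probes were above 0 on replicates 2 and 4 and below 0 on replicates 1 and 3, as were 3.57% of all genes.

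Within each dye, 2 of the 10 genes, Gnmt and Bhmt, had both knockout mice above both control mice, where 11.4% of all genes did. Csad was the 1 gene with both below, where 9.56% of all genes did. Means closer to 0 than 0.2 were found for 5 of the 10 genes and for 77.8% of all genes.

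Genes with values nearest to Csad over the 4 arrays were named by the smallest root mean square difference of their log2 ratios. They were Gm7298 (0.19), Slc7a4 (0.20), Mug1 (0.22), Crlf2 (0.28) and Dnaja4 (0.30), where the number is that difference. Gm7298 had -1.50, -1.65, -1.21 and -0.62, and Slc7a4, a member of the amino acid transporter family, had -1.42, -1.51, -1.31 and -0.75. Mug1, a plasma protease inhibitor of the liver, had -1.81, -1.36, -1.27 and -0.62. As in Csad, replicate 4 held the value nearest to 0 in each of these 3 genes. A pattern shared with Csad was set by how these genes were picked, so nothing is read from it.

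Nearest to Bhmt were Slc27a5 (0.11), Alb (0.18), 4931408D14Rik (0.22), Pmvk (0.24) and Adh1 (0.25). Slc27a5, the ligase that activates bile acids before taurine is joined to them, had -0.48, -0.52, 1.20 and 1.35. Adh1, the liver alcohol dehydrogenase, had -0.50, -0.55, 1.01 and 1.01. All 5 genes were below 0 on replicates 1 and 2 and above 0 on replicates 3 and 4, a pattern that was again set by how they were picked.

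**Figure D3:**
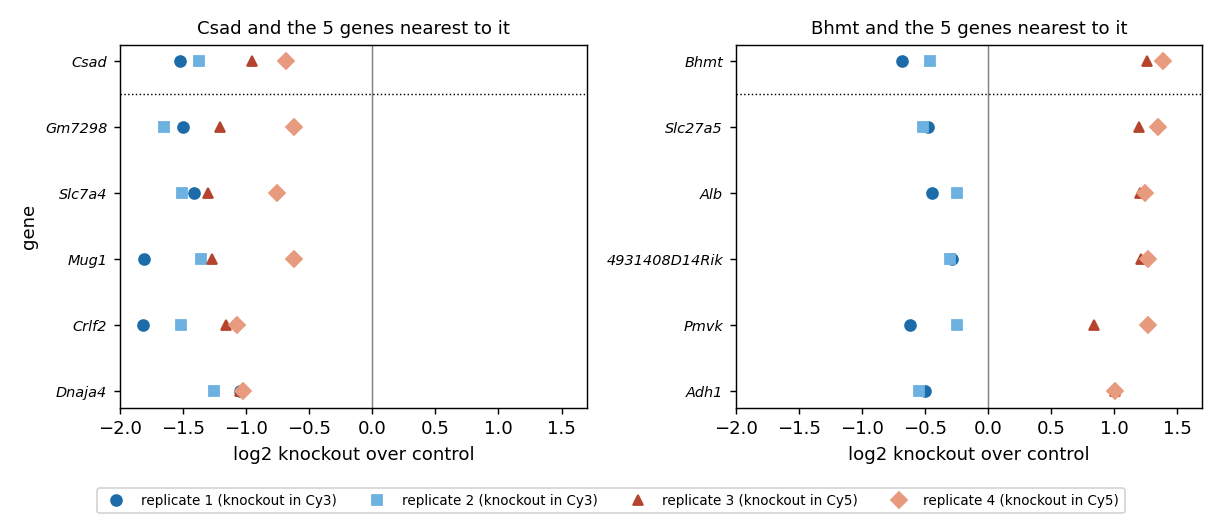
Log2 knockout over control (x axis) of Csad (left) and Bhmt (right) and of the 5 genes nearest to each (y axis), 1 point per array, coloured by the dye of the knockout RNA. The points of Csad and its nearest genes lie at or below -0.62, and those of Bhmt and its nearest genes lie on both sides of 0 by dye orientation.

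The other genes of these pathways were taken from 7 lists, which were written with earlier results of the same arrays known. Of the 93 genes listed, Mtrr, Gadl1, Ggt1, Slc7a11 and Slc51a did not pass the filter on dim probes and Amd1 was not matched to a probe. Of 87 genes tested, limma called 0 at an adjusted p under 0.05 and 7 at an adjusted p under 0.1, or 8.05% against 5.56% of all genes tested. Without replicate 1 the count at 0.1 was 3, made up of Nnmt, Acnat2 and Cyp7b1, and Cyp7b1 was not among the 7. Without replicate 2, 3 or 4 the count was 0. With separate-channel analysis of the same mice the count at 0.1 was 31, 23 of them under 0.05.

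Among 19 tested genes of the methionine cycle and methyl groups, 11 were above 0 and 8 below, with a median of 0.01. Nnmt, which methylates nicotinamide with S-adenosylmethionine, had 1.31, 1.30, 0.93 and 0.88, a mean of 1.10 ± 0.23 (SD, n = 4; limma adjusted p 0.0537). It was the 1 gene of the list called at 0.1, and the mean of its probes was 0.72. Ahcyl1, an Ahcy-like protein, had -0.24 ± 0.07 (limma adjusted p 0.113) and Shmt1, a cytosolic serine hydroxymethyltransferase, 0.21 ± 0.03 (limma adjusted p 0.115), both with 1 sign on the 4 arrays.

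The taurine list covered supply, transport and joining to bile acids, and 3 of its 9 tested genes were called at 0.1, with a list median of 0.17. Acnat2, an acyltransferase related to the bile acid conjugating enzyme Baat, had 0.63, 1.01, 1.53 and 1.51, a mean of 1.17 ± 0.43 (limma adjusted p 0.0537). Slc6a12, a betaine and GABA transporter, had -0.73, -0.65, -0.34 and -0.14, a mean of -0.46 ± 0.28 (limma adjusted p 0.0649). Slc27a5 had a mean of 0.39 ± 1.02 (limma adjusted p 0.0669), from arrays on both sides of 0. Without a dye term the calls of Slc6a12 and Slc27a5 were lost.

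Baat itself, which joins taurine or glycine to bile acids and was chosen after its values were seen, had -0.28, -0.19, -0.10 and 0.06, a mean of -0.13 ± 0.15 (limma adjusted p 0.272). Fmo1, which oxidises hypotaurine to taurine, had 0.49 ± 0.40 (limma adjusted p 0.191). Acnat2 was higher and Slc6a12 lower on each of the 4 arrays.

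Cysteine breakdown and sulphur oxidation had 9 of 14 genes above 0 and a median of 0.15, and none was called at 0.05 or 0.1, with 7 at an unadjusted p under 0.05 in limma. Kyat3, a cysteine conjugate lyase, had 0.33 ± 0.17 (limma adjusted p 0.126), Mpst, a mercaptopyruvate sulphurtransferase, 0.33 ± 0.19 (limma adjusted p 0.146) and Got2, the mitochondrial aspartate aminotransferase, 0.16 ± 0.12 (limma adjusted p 0.165), each above 0 on all 4 arrays.

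Glutathione synthesis and turnover had 6 of 13 genes above 0, a median of -0.02 and none called at 0.05 or 0.1, with 3 at an unadjusted p under 0.05 in limma. The catalytic and modifier subunits of glutamate cysteine ligase, Gclc and Gclm, were below 0 on each array, with -0.32 ± 0.20 (limma adjusted p 0.165) and -0.14 ± 0.05 (limma adjusted p 0.197). Lap3, a leucine aminopeptidase, had 0.15 ± 0.02 (limma adjusted p 0.164).

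Bile acid feedback had 6 of 12 genes above 0 and a median of -0.06. Cyp27a1, a sterol hydroxylase of the alternative bile acid pathway, had -0.31, -0.30, -0.70 and -0.36, a mean of -0.42 ± 0.19 (limma adjusted p 0.0884), and was the 1 gene called at 0.1, a call lost with the processed signals, with normexp fitted on every spot and without a dye term. Slc51b, a subunit of the bile acid exporter, had 0.70 ± 0.47 (limma adjusted p 0.133), with a mean of 1.23 from the processed signals. Nr1h4, the bile acid receptor FXR, had 0.32 ± 0.28 (limma adjusted p 0.156), and both were above 0 on all 4 arrays. The next genes were chosen after their values were seen. Cyp7b1, with the largest mean of the list in size, had 1.205, -0.485, -3.018 and -2.642, a mean of -1.235 ± 1.973 (limma adjusted p 0.127). Cyp8b1 had a mean of -0.57 ± 0.42 (limma adjusted p 0.17). Nr0b2, the FXR target SHP, had -0.88, -0.15, -0.20 and 0.14, a mean of -0.27 ± 0.43, and Cyp7a1, the rate-limiting enzyme of bile acid synthesis, had -1.44, 0.04, -0.29 and 0.99.

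Serine supply and amino acid stress had 2 of 10 genes called at 0.1, with a list median of -0.01. Asns, asparagine synthetase, had 2.36, 1.31, 1.24 and 2.44, a mean of 1.83 ± 0.65 (limma adjusted p 0.0744). Atf5, a stress transcription factor, had 0.10, 0.17, 1.12 and 0.96, a mean of 0.59 ± 0.53 (limma adjusted p 0.0589). The call of Atf5 was lost without a dye term. Atf4, the factor at the head of this response, chosen after its values were seen, had -0.44, -0.55, 0.34 and 0.28. Psat1, an enzyme of serine synthesis, had -0.19 ± 0.22 with all 4 arrays below 0 (limma adjusted p 0.269). It was well above background in 2 of 4 knockout mice, and its mean was -0.70 from the processed signals.

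Polyamine synthesis, which draws on S-adenosylmethionine, had 6 of 11 genes above 0, a median of 0.05 and none called at 0.05 or 0.1, with 3 at an unadjusted p under 0.05 in limma. Odc1, ornithine decarboxylase, had 0.41 ± 0.20 (limma adjusted p 0.122), and Mtap, which salvages methionine from the by-product of the pathway, had 0.17 ± 0.11 (limma adjusted p 0.205). Sms, spermine synthase, had 0.05 ± 0.02, and all 3 were above 0 on every array.

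**Figure D4:**
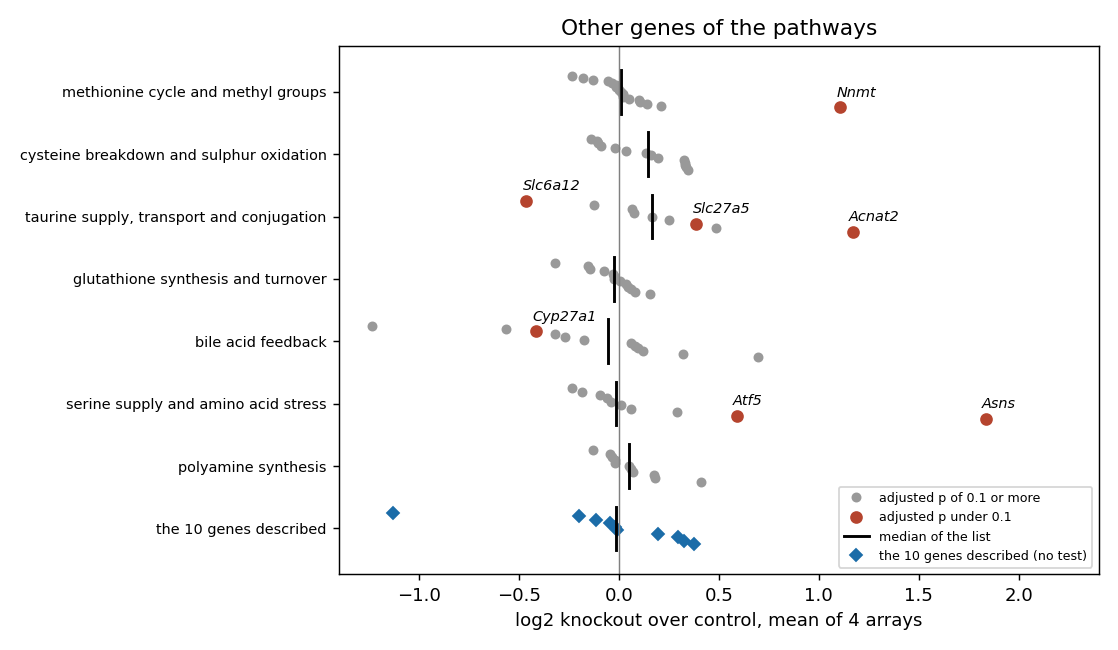
Mean log2 knockout over control (x axis) of each tested gene of the 7 pathway lists and of the 10 genes described (y axis), with the list medians as black bars. Pathway genes at an adjusted p under 0.1 are red and the 10 genes described are blue whatever their p. The red points are Nnmt, Slc6a12, Slc27a5, Acnat2, Cyp27a1, Atf5 and Asns, and the medians of the lists lie between -0.06 and 0.17.

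Markers of other cells were read from 9 lists. The 9 pancreatic acinar markers had medians of 4.20, -2.64, -0.16 and -1.07 on replicates 1 to 4, and their summed level ran from 12.19 to 13.58 in control and from 12.02 to 15.44 in knockout livers. The mean of Csad was -1.09 without replicate 1, -1.17 without replicate 2, -1.065 without replicate 3 and -1.20 without replicate 4. The part of acinar transcripts in these values was not tested. Of 7 biliary markers, Krt19, a keratin of bile ducts, had 0.64 ± 0.39 (limma adjusted p 0.0649) and Spp1, osteopontin, 0.37 ± 0.16 (limma adjusted p 0.0753), while the other 5 did not pass 0.1. By mean, 6 of the 7 were above 0, and Sox9 was below with -0.21. The summed biliary level was 10.11 to 10.48 in control and 10.52 to 10.69 in knockout livers, without overlap but by a narrow margin. It differed by 0.09, 0.10, 0.41 and 0.44 on replicates 1 to 4. Of single genes tested, 7.11% had knockout mice all above control mice.

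The summed levels of the remaining lists overlapped between genotypes. They ran in control and in knockout livers from 13.69 to 14.10 and from 13.42 to 14.29 for macrophages (6 of 6 markers tested), from 14.13 to 14.30 and from 14.01 to 14.18 for endothelium (6 of 6), and from 14.03 to 14.38 and from 13.95 to 14.26 for stellate cells (6 of 6). Erythroid markers (2 of 4) had 14.99 to 15.65 and 14.70 to 15.51. Lymphocyte markers (2 of 5) had 8.934 to 9.129 and 8.841 to 8.935, a narrow overlap. Their sum differed by -0.09, -0.11, -0.19 and -0.07 on replicates 1 to 4. The 6 endothelial markers all had means below 0, and their sum differed by 0.05, -0.20, -0.15 and -0.27. Of the adipocyte markers, Adipoq, Plin1 and Lep did not pass the filter on dim probes, and Cfd, the 1 that could be summed, differed by 1.66, -1.15, -2.23 and 0.15. The part of these cells in the values of the 10 genes was not tested.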

How the data were processed

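Per the labels' protocols, liver RNA was copied into cRNA that carried Cy3 or Cy5. Feature Extraction 10.7.3.1 gave, per the file headers, the deposited intensity and local background of each spot, processed intensities and a log10 ratio of Cy5 over Cy3, which was left untested. The authors' deposited value table holds log2 ratios. All its 43020 values per array equal, within 1e-04, log2 knockout over control of the processed signals, which settles scale and direction. Its medians were -0.05, 0.14, -0.18 and -0.18.

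Here the mean signals were background-corrected in limma 3.58.1 (R 4.3.3) with normexp and an offset of 50, fitted on spots without a mark for non-uniform background. Fitted on every spot, the background mean of replicate 1 was -273 in Cy3, against 4.07. Ratios were normalized by loess within arrays. Control spots and feature outliers (194 to 230 per array) were left out. A probe was tested if 3 or more mice of 1 genotype were well above background, and the brightest tested probe stood for a gene. The fit had the array ratio as unit, a dye term and Benjamini-Hochberg adjustment, so standard errors leave out differences between dye orientations. The 10 genes, their lists and the named genes (all called at 0.1, and up to 3 per pathway list with 1 sign on 4 arrays and the largest mean, the 5 nearest to Csad and to Bhmt, Ppp1r8 and called cell markers) were chosen with earlier results of these data known. Genes outside that rule are said to be so, or stand as marker list members. Levels are channel intensities after loess and Aquantile. All arrays lay on 1 slide with 1 scan. Symbols were updated through RefSeq (GRCm38.p6), where 30708 of 43020 spots matched. The script was tested on simulated data. Figures were drawn with matplotlib 3.10.9.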

Additional observations from a re-analysis of the deposited data

Results flagged for a closer look

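Among 48 groups of 4 values of the 10 genes (ratios, control levels and knockout levels of each probe), 1 held a value far from the others by Dixon's criterion for 4 samples. This was the Mat1a level of the control mouse of replicate 4, at 14.2 (log2 normalized intensity), where the other 3 control mice lay between 15.0 and 15.2. Chance alone gives such a value in about 1 of 20 groups.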

How the results depend on the processing

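Csad stayed below 0 under every alternative run, with means from -1.13 to -1.08 over the processing alternatives and from -1.20 to -1.06 when 1 replicate was left out. Bhmt stayed above 0 in all of them (0.32 to 0.43), but its mean was -0.57 on the 2 arrays with the knockout in Cy3 and 1.32 on those with it in Cy5. Of the 10 genes, 2 were called at 0.1 in the main analysis, 1 with the processed signals, without a dye term or with the mean of a gene's probes, 0 when any 1 replicate was left out and 4 in the separate-channel fit. At 0.05 the main analysis called 0 of them and the separate-channel fit called 3. Csad alone was called at 0.05 without background subtraction, with median centring, with an intensity trend and robust variances and without a filter. Over all genes, the separate-channel fit called 4244 of 16301 at 0.1 and 2760 at 0.05. Since the 10 genes were chosen with this contrast known, nothing is read from these counts. Ahcy at its brightest probe moved between -0.55 and 0.33, Cdo1 between -0.22 and 0.18 and Cth between -0.01 and 0.40 when 1 replicate was left out.

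Over all genes, the 0 calls at 0.05 became 29 without background subtraction, 8 with the processed signals or the value table, 207 with median centring, 10 without a dye term, 27 with an intensity trend and robust variances, 257 without a filter and 2760 in the separate-channel fit, which treats the mice of an array as correlated at 0.45. The 907 calls at 0.1 became 442 with normexp fitted on every spot, 1363 with median centring, 230 without a dye term and 4244 in the separate-channel fit, and 0 to 58 when 1 replicate was left out. For the pathway lists, the 0 calls at 0.05 became 2 without background subtraction or with the trend, 3 with median centring or without a filter and 23 in the separate-channel fit. The 7 calls at 0.1 became 11 with median centring, 3 without a dye term and 31 in the separate-channel fit, and 0 to 3 when 1 replicate was left out. The cause of these shifts was not tested. All 16 probes of the 10 genes were well above background in every mouse.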
